A study of Mus musculus with 12 samples.

Results

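Copying the genome once per cell cycle needs a set of genes that a dividing cell switches on together at the border of G1 and S phase, and 43 of them were followed here among the 22880 features of an RNA sequencing count table of 4T1 cells. The members were taken by symbol, and earlier results of these data were known when the list was chosen. They were 4 E2F factors, 5 kinases and cyclins, 12 genes of origin licensing and the helicase, 13 of the polymerases and the fork, 5 of nucleotide supply and uracil removal and 4 that serve histones and chromatin. All 43 were found in the table, and all 43 passed the filter on low counts; the lowest count of any member in any library was 103, of Ccne1. 4T1 cells are a line from a mammary tumour of a mouse, and they form metastases in the lung. MYBup cells were transfected with pcDNA3-mMyb, a plasmid that carries mouse Myb, which encodes the transcription factor c-Myb. Mock cells were transfected with the plasmid pcDNA3.1 and were the counterpart of MYBup. The lung3 cells were not transfected and had been passaged 3 times through the lung. The wt cells were untransfected 4T1 cells that had not been passaged, and were the counterpart of lung3. Lung metastatic activity is labelled low for MYBup, high for lung3 and normal for mock and wt. Each group had 3 libraries. The labels do not say whether the 3 libraries are of separate cultures; p-values therefore describe library-to-library spread, part or all of which may be technical. Nor do the labels say whether MYBup and mock cells were pools or single clones, so an effect of Myb and a difference between the transfected lines cannot be told apart.

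In G1, the ring-shaped helicase made of the MCM proteins is loaded at origins by CDC6 and CDT1, and cyclin E with CDK2 and the DBF4-dependent kinase CDC7 then start replication with CDC45 and the GINS complex. E2F1 and E2F2 switch on transcription of most of these genes once cyclin-dependent kinases have inactivated the retinoblastoma protein, and E2F7 and E2F8 are atypical family members that repress the same genes later in S phase. DNA polymerase alpha with primase starts each new strand, polymerases delta and epsilon extend it on the PCNA clamp that RFC loads, and FEN1 and DNA ligase I join the pieces.

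The promoters of the members are shown first, because many genes of S phase are known to carry E2F elements there. Windows from 250 bases before to 50 bases after a RefSeq transcript start (GRCm38.p6) were found for 37 of the 43 members, and none was found for Mcm4, Gins1, Gins2, Rfc2, Pole or Ccne2. The 8 letters TTTCGCGC or TTTGGCGC were searched on both strands. They were present in 11 of 37 members (29.7%), against 169 of 8872 tested genes with a window (1.9%) and 251 of 27025 genes in all (0.929%). The 11 members were Cdt1, Clspn, E2f2, Lig1, Mcm3, Mcm5, Mcm6, Mcm7, Pola1, Rfc3 and Uhrf1. The letters were present in 4 of 9 members that were higher in MYBup than in mock cells, in 1 of 4 that were lower and in 6 of 24 that were not called. The 250 bases before the start are given for Mcm6, which was called in no comparison, and for Pola1, Mcm5 and Uhrf1, which were called between MYBup and mock, and a site of 30 bases for Cdt1 and E2f2, whose letters lie after the start. They are chr1:128359706-128359955 on the minus strand for Mcm6, chrX:93632156-93632405 on the minus strand for Pola1, chr8:75109259-75109508 on the plus strand for Mcm5 and chr17:56304063-56304312 on the plus strand for Uhrf1. The sites are chr8:122568027-122568056 for Cdt1 and chr4:136172293-136172322 for E2f2, both on the plus strand. Capitals mark the E2F letters on either strand, and in Mcm6 and Mcm5 a match on one strand overlaps a match on the other.
Mcm6: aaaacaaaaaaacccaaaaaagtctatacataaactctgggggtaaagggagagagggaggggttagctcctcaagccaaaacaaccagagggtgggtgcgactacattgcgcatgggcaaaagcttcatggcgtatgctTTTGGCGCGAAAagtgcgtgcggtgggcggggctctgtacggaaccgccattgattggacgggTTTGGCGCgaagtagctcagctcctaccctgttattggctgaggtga
Pola1: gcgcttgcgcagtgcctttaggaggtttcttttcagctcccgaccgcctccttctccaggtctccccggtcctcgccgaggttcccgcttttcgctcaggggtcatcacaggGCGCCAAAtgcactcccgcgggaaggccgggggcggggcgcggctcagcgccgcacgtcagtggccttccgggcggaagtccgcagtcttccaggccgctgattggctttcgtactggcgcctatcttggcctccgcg
Mcm5: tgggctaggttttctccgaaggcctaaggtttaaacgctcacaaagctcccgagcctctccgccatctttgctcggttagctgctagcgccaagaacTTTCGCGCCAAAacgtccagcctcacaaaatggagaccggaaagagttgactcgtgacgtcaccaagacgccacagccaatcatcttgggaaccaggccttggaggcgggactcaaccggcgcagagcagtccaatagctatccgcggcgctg
Uhrf1: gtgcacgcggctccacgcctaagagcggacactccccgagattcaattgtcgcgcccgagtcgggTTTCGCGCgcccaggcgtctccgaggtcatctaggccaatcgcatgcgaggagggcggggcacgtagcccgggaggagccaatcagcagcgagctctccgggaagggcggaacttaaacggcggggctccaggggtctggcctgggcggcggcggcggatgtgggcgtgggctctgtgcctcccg
Cdt1: gaatccgcgggaactaccttTTTGGCGCca
E2f2: ccgaatttggcggcatatagTTTGGCGCta
Counted from the start, with the base before it as -1, the letters begin at -110, -106 and -47 in Mcm6, at -138 in Pola1, at -153 and -149 in Mcm5 and at -185 in Uhrf1. They begin at base 33 after the start in Cdt1 and at base 40 in E2f2. The letters TAACNG or CAACNG, the core that c-Myb binds, were present on either strand in 17 of 37 members (45.9%). They were present in 49.6% of tested genes with a window and in 53.1% of all genes with a window. CCAAT was present in 22 of 37 members (59.5%), against 43.6% of tested genes and 41.1% of all genes with a window. Such matches describe the letters of these windows and are not evidence of binding.

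Lung3 replicate 2 had the lowest total count (8912989) and wt replicate 2 the highest (24745660). Myb stood at 39.3, 42.9 and 39.8 CPM (read counts scaled to the library's total and edgeR's TMM factor) in MYBup cells, against 5.17, 4.49 and 6.80 CPM in mock cells. It stood at 3.13, 2.77 and 2.22 CPM in lung3 cells, against 4.27, 4.96 and 5.75 CPM in wt cells. Reads from the plasmid and from the endogenous gene fall in the same row. Of 8 mammary epithelial markers the summed level was 2362 to 2457 CPM in MYBup, 2458 to 2759 in mock, 2011 to 2337 in lung3 and 2183 to 2473 in wt libraries, and its part in the results was not tested. Summed leukocyte markers reached at most 1.38 CPM in any library, and the lung epithelial markers Sftpc, Sftpb and Sftpa1 had 0 counts. Of the other lung epithelial markers, Scgb1a1 had 2 counts in all, and Foxj1 averaged 0.618 CPM in MYBup, 0.720 in mock, 0.515 in lung3 and 0.539 in wt cells. Summed fibroblast markers stood at 38.7 to 48.6 CPM in MYBup, 36.8 to 48.9 in mock, 15.9 to 21.6 in lung3 and 21.7 to 30.3 in wt libraries. Most of that was Pdgfra, whose part in the results was not tested. MYBup replicate 1 and mock replicate 2 deviated together from their group means across all tested genes (correlation of deviations 0.636), and the calls that change without both are given with each comparison.

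The members were well expressed and varied little. Per kilobase of exon, the mean level in wt cells was lowest for E2f2 (2.79 CPM per kb), followed by Ung (4.09) and Ccne1 (5.16). It was highest for Rrm2 and Pcna (both 152 CPM per kb), and the 6 Mcm genes lay between 33.4 for Mcm2 and 113 for Mcm5. On the log2 scale, the median SD of a member over the 12 libraries was 0.183, against 0.240 for all 11291 tested genes, and 13 members were above that value. Summed over the 43 genes, the level was 6742, 6386 and 6494 CPM in MYBup libraries, against 6656, 6856 and 5907 CPM in mock libraries. The same sum was 5732, 5748 and 5740 CPM in lung3 libraries, against 6246, 6380 and 5788 CPM in wt libraries. The sums of MYBup and mock overlapped, and those of lung3 were below all 3 of wt. In libraries of whole cell populations, fewer cells in S phase and less of these RNAs per cell cannot be told apart. By mean level, MYBup was the highest group for 23 members, mock for 13, lung3 for 2 and wt for 5, while lung3 was the lowest group for 22. Single libraries carried part of this: mock replicate 3 was the lowest of its group for 32 members, mock replicate 2 the highest for 27, MYBup replicate 1 the highest for 28 and wt replicate 3 the lowest for 25. These counts by group and by library were not made over all tested genes, so they have no background beside them.

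**Figure D1:**
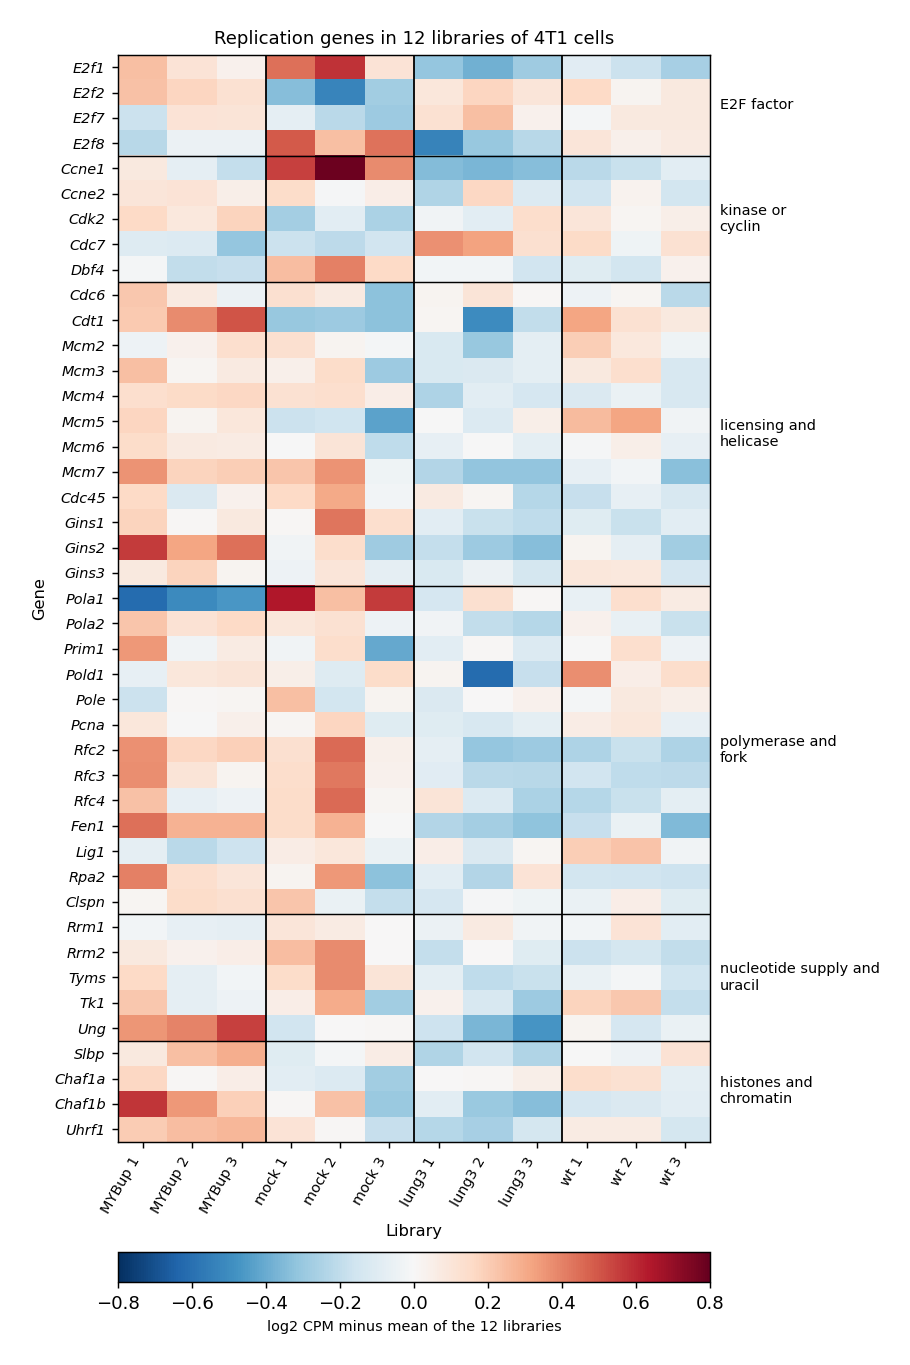
Level of each of the 43 genes (rows, grouped by role) in each of the 12 libraries (columns), as log2 CPM minus the mean of that gene over all libraries; red is above and blue below that mean. Most rows stay within a narrow range, lung3 columns are mostly blue, and Pola1, Ccne1 and Cdt1 separate MYBup from mock libraries.

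Setting MYBup against mock cells addressed which genes differ between the line with raised Myb and its plasmid control. Of the 43 members, 14 changed (32.6%; edgeR quasi-likelihood test, adjusted p under 0.05), where 26.9% of all tested genes did. The 10 that were higher in MYBup (23.3%, against 14.3% of all genes) were E2f2, Cdk2, Cdt1, Mcm5, Gins2, Ung, Slbp, Chaf1a, Chaf1b and Uhrf1. The 4 that were lower (9.3%, against 12.6% of all genes) were Pola1, Ccne1, E2f8 and Dbf4. The median log2 fold change of the 43 was 0.05, against 0.00 for all genes, with 27 members above and 16 below 0. The libraries of the groups did not overlap for 16 members (37.2%, against 40.6% of all genes), 10 of them higher (23.3%, against 21.8%) and 6 lower (14%, against 18.8%) in MYBup. The changes were small, with Pola1 as the only member that reached 2-fold. Of the 14 calls, 9 held when any one of the 12 libraries was left out (E2f2, E2f8, Ccne1, Cdk2, Dbf4, Cdt1, Gins2, Pola1 and Ung), and the other 5 did not. Without mock replicate 3, MYBup replicate 2, MYBup replicate 3 or wt replicate 1, 6 members were called as higher instead of 10. Without both MYBup replicate 1 and mock replicate 2, the calls of Chaf1a (0.20, adjusted p = 0.101) and Uhrf1 (0.28, adjusted p = 0.0548) were lost and E2f7 was called as higher (0.28, adjusted p = 0.0497).

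Of the 4 E2F factors, E2f2 was higher and E2f8 lower. E2f2, an activator (chromosome 4, 136172394 to 136196057), was at 15.1, 14.5 and 14.0 CPM in MYBup and 10.1, 8.91 and 10.6 CPM in mock libraries (log2 fold change 0.55, SE 0.10, adjusted p = 0.00127). E2f1, the other activator, was at 63.5, 57.9 and 55.0 CPM in MYBup and 73.0, 80.2 and 58.0 CPM in mock libraries, a difference of -0.26 that did not pass the test (adjusted p = 0.0873). Without mock replicate 3 its difference was -0.38 (adjusted p = 0.00849). E2f8, an atypical repressor (chromosome 7, 48866429 to 48881596), was at 125, 141 and 141 CPM in MYBup and 204, 172 and 197 CPM in mock libraries (-0.50, SE 0.09, adjusted p = 0.00155). The E2f2 and E2f8 libraries of the groups did not overlap, E2f2 being higher and E2f8 lower in MYBup, while those of E2f1 did overlap. E2f7, the other repressor, differed by 0.21 (adjusted p = 0.115) and was called only without MYBup replicate 1, alone or with mock replicate 2 (0.29, adjusted p = 0.0372, without that library). The exons of E2f8 overlap 610 bases of Gm2788 on the opposite strand, and reads could not be assigned to a strand with what is given.

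Of the 5 kinases and cyclins, Cdk2 was higher and Ccne1 and Dbf4 were lower. Ccne1, which encodes cyclin E1 (chromosome 7, 38097984 to 38107534), was at 16.2, 14.6 and 13.4 CPM in MYBup and 22.4, 26.4 and 19.9 CPM in mock libraries (-0.64, SE 0.11, adjusted p = 0.00105). Ccne2, the gene of cyclin E2, was at 65.2, 65.8 and 63.0 CPM in MYBup and 67.5, 60.6 and 63.1 CPM in mock libraries (0.02, adjusted p = 0.905). All 3 MYBup libraries were thus below all 3 mock libraries for Ccne1 and mixed with them for Ccne2. Cdk2, the kinase that both cyclins activate (chromosome 10, 128697939 to 128705031), was at 57.2, 54.5 and 58.2 CPM in MYBup and 42.5, 48.5 and 43.1 CPM in mock libraries (0.34, SE 0.08, adjusted p = 0.00716). Dbf4, the activating subunit of the CDC7 kinase (chromosome 5, 8396973 to 8422716), was at 195, 172 and 174 CPM in MYBup and 233, 261 and 219.7 CPM in mock libraries (-0.40, SE 0.08, adjusted p = 0.00365). Neither Cdk2 nor Dbf4 overlapped between the groups, Cdk2 being higher and Dbf4 lower in MYBup. Cdc7 itself averaged 19.7 ± 1.58 CPM in MYBup, against 19.6 ± 0.421 CPM in mock (SD, n = 3 each; 0.00, SE 0.10).

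Of the 12 licensing and helicase genes, 3 were called, all higher in MYBup: Cdt1, Mcm5 and Gins2. The median log2 fold change of the 12 was 0.10. Cdt1, the loading factor whose destruction keeps origins from firing again (chromosome 8, 122568015 to 122573554), was at 105, 118 and 129 CPM in MYBup and 73.7, 74.3 and 72.5 CPM in mock libraries (0.68, SE 0.12, adjusted p = 0.00096). Cdc6, which loads the helicase with it, was at 85.1, 77.1 and 71.0 CPM in MYBup and 80.3, 77.3 and 58.6 CPM in mock libraries (0.11, adjusted p = 0.525). Every MYBup library exceeded every mock library for Cdt1, and the groups overlapped for Cdc6. Mcm5, a helicase subunit (chromosome 8, 75109569 to 75128439), was at 448, 404 and 424 CPM in MYBup and 353, 356 and 295 CPM in mock libraries (0.34, SE 0.10, adjusted p = 0.0216), and lost its call without mock replicate 3, MYBup replicate 1 or MYBup replicate 3 (adjusted p at most 0.0730). Mcm2, another helicase subunit, was at 213, 224 and 239.8 CPM in MYBup and 239, 222 and 216 CPM in mock libraries (-0.00, adjusted p = 0.984). The other 4 helicase subunits differed by 0.05 (Mcm4) to 0.14 (Mcm3) and did not pass the test, so that Mcm5 was the called gene among the 6 subunits. Gins2, a subunit of the GINS complex (chromosome 8, 120578633 to 120589304), was at 48.4, 40.9 and 44.6 CPM in MYBup and 32.2, 36.2 and 27.0 CPM in mock libraries (0.49, SE 0.11, adjusted p = 0.0063). Its partners Gins1 (-0.11) and Gins3 (0.10) and the helicase activator Cdc45 (-0.12) did not pass the test. Gins2 shares 2758 exonic bases with Gse1 on the opposite strand, and Gse1 was itself higher in MYBup (0.82, SE 0.14, adjusted p = 0.00105); the part of those reads in the Gins2 value was not tested.

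The 13 polymerase and fork genes held the largest single change and no other call, with a median log2 fold change of 0.01. Pola1, the catalytic subunit of DNA polymerase alpha (chromosome X, 93304767 to 93632155), was at 98.9, 106 and 109.7 CPM in MYBup and 236, 179 and 223 CPM in mock libraries (-1.02, SE 0.10, adjusted p = 2.13e-05). The highest MYBup library was thus far below the lowest mock library. Pola2, the accessory subunit of the same enzyme (0.11), and Prim1, the primase subunit (0.22), did not pass the test. The ratio of Pola1 to Pola2 CPM was 0.973, 1.13 and 1.13 in MYBup and 2.55, 1.89 and 2.63 in mock libraries, a log2 difference of -1.12. Its two-sided exact permutation p was 0.1, the smallest that 3 against 3 libraries can give, and 0.185 after adjustment over 24 ratio comparisons. Pold1 and Pole, the catalytic subunits of polymerases delta and epsilon, differed by 0.01 and -0.09, without passing the test. Pcna, the sliding clamp, was at 380.3, 356 and 367 CPM in MYBup and 360.1, 401 and 333 CPM in mock libraries (0.01, SE 0.08). The clamp loader genes Rfc2, Rfc3 and Rfc4, the flap nuclease Fen1, the ligase Lig1, the single-strand binding subunit Rpa2 and the checkpoint mediator Clspn lay between -0.19 (Lig1) and 0.19 (Fen1), and none passed the test with all libraries. Rpa2 did without mock replicate 2 (0.35, adjusted p = 0.0477). Reads of Pcna may also match the processed pseudogene Pcna-ps2, and 80.5% of the Fen1 transcript is shared with the antisense gene Gm10143, so their levels are less certain. The exons of Ccne2, Mcm7, Cdc45, Rfc2, Rfc4, Lig1, Pole, Tk1, E2f7 and Cdk2 also overlap a gene on the opposite strand.

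**Figure D2:**
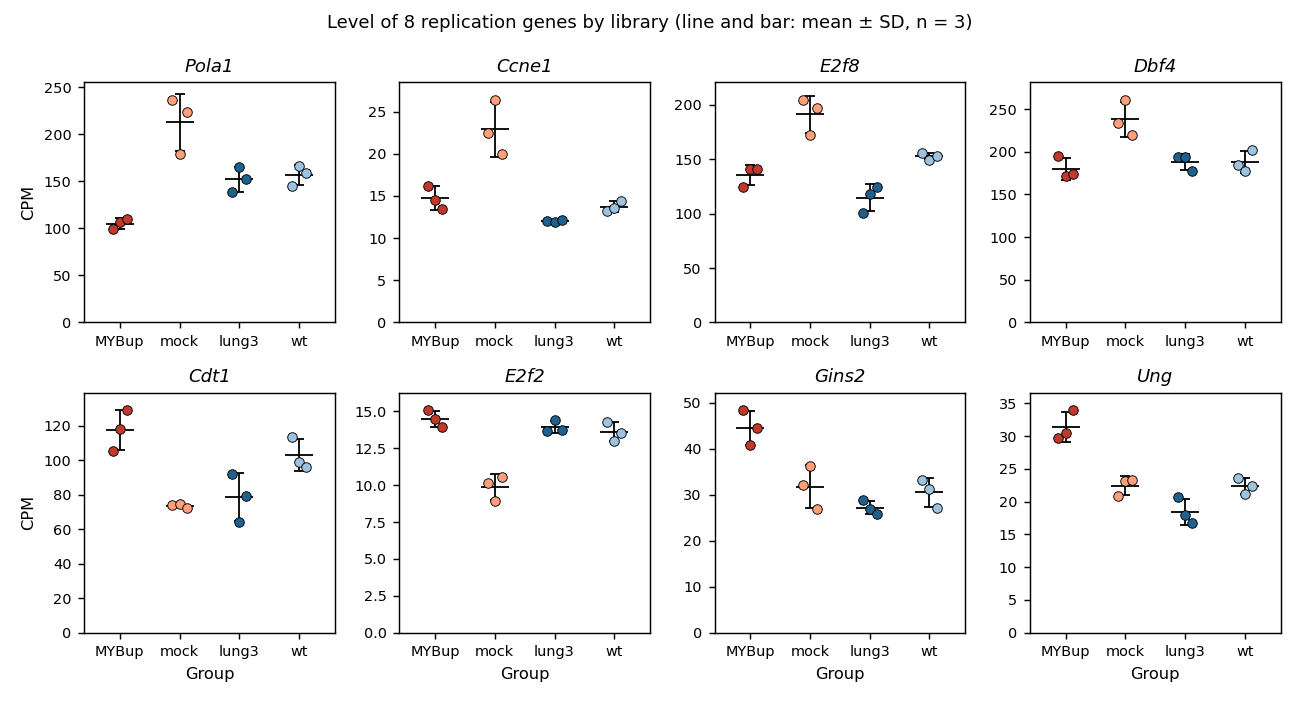
CPM of 8 called genes in each library (points), with the mean and SD of each group (line and bars, n = 3), for MYBup, mock, lung3 and wt from left to right. Pola1, Ccne1, E2f8 and Dbf4 are lower in MYBup than in mock libraries, and Cdt1, E2f2, Gins2 and Ung are higher, without overlap between those groups.

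Of the 5 genes of nucleotide supply and uracil removal, Ung was higher in MYBup and the others did not pass the test. Rrm2, the regulated subunit of ribonucleotide reductase, was at 501, 485 and 491 CPM in MYBup and 562, 616 and 474 CPM in mock libraries (-0.16, adjusted p = 0.201). Tyms, thymidylate synthase, was at 114, 97.1 and 100.2 CPM in MYBup and 113, 132 and 109 CPM in mock libraries (-0.19, adjusted p = 0.135). The groups overlapped for both, and Rrm1 (-0.11), the large reductase subunit, and Tk1 (-0.00), thymidine kinase, also did not pass the test; Rrm2 was called as lower when mock replicate 3 was left out (-0.26, adjusted p = 0.0337). Ung, the glycosylase that removes uracil from DNA (chromosome 5, 114130386 to 114139323), was at 29.6, 30.4 and 33.9 CPM in MYBup and 20.9, 23.2 and 23.3 CPM in mock libraries (0.49, SE 0.10, adjusted p = 0.00259). Its libraries did not overlap between the groups. Rrm2 shares a stretch of over 95% identity with the processed pseudogene Gm48455, as do Cdc6 with Gm9430 and Mcm7 with Gm5487, and how the authors counted such reads is not given.

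All 4 histone and chromatin genes were called as higher, with a median of 0.24. Slbp, which binds the stem-loop of replication-dependent histone mRNA (chromosome 5, 33634952 to 33652574), was at 119, 133 and 137 CPM in MYBup and 105, 111 and 117 CPM in mock libraries (0.22, SE 0.08, adjusted p = 0.0467). Chaf1a, the large subunit of the chromatin assembly factor CAF-1 (chromosome 17, 56040439 to 56072289), was at 164, 147 and 152 CPM in MYBup and 138, 136 and 121 CPM in mock libraries (0.23, SE 0.08, adjusted p = 0.0471). Chaf1b, its middle subunit (chromosome 16, 93883901 to 93906115), was at 94.0, 80.2 and 72.2 CPM in MYBup and 63.5, 74.3 and 51.4 CPM in mock libraries (0.38, SE 0.13, adjusted p = 0.0412). Of these 3 genes, Chaf1b had overlapping groups, since MYBup replicate 3 was below mock replicate 2. Uhrf1, which brings maintenance methylation to new DNA (chromosome 17, 56303321 to 56323486), was at 341, 352 and 357 CPM in MYBup and 319.9, 298 and 261 CPM in mock libraries (0.26, SE 0.09, adjusted p = 0.0406). These 4 calls were close to the threshold. That of Slbp was lost without any 1 of 9 libraries, all but mock replicate 3, MYBup replicate 1 and wt replicate 3 (adjusted p at most 0.185), and that of Chaf1a without any 1 of 10, all but mock replicate 2 and wt replicate 3 (at most 0.155). That of Chaf1b was lost without mock replicate 1 or 3, MYBup replicate 1 or 2, wt replicate 1 or 2, or lung3 replicate 2 (at most 0.161). That of Uhrf1 was lost without mock replicate 3, any MYBup replicate, wt replicate 1 or lung3 replicate 1 (at most 0.132). Chaf1a also shares 4648 exonic bases with Ubxn6 on the opposite strand, and Slbp shares 474 with Gm10459. Uhrf1 and Slbp have the processed pseudogenes Gm5648 and Gm8396.

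**Figure D3:**
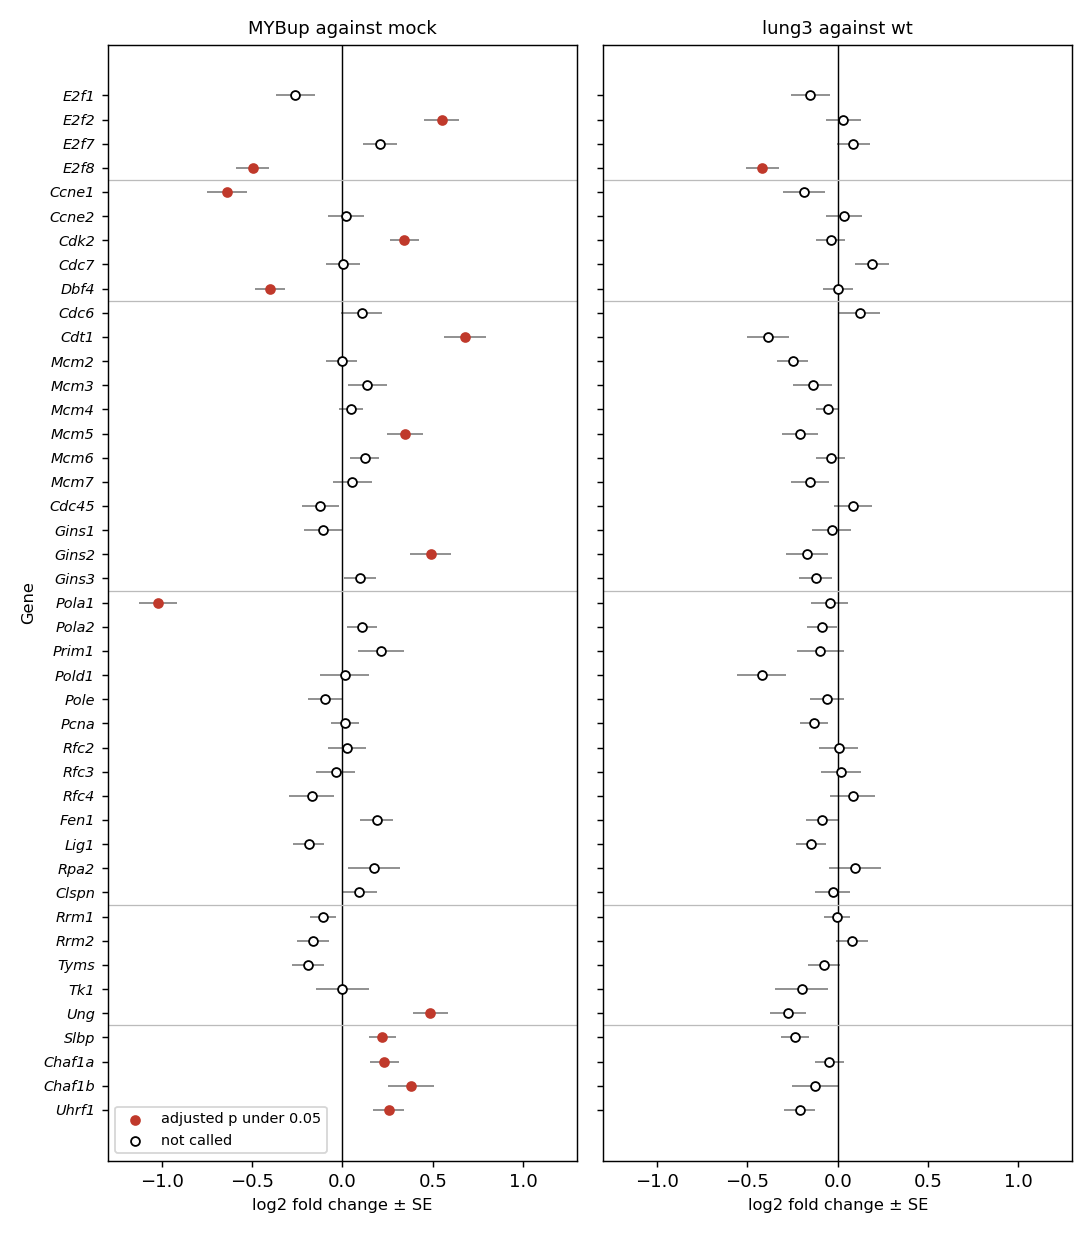
Fitted log2 fold change with its SE for each of the 43 genes, in the order of their roles, for MYBup against mock (left) and lung3 against wt (right); filled points passed an adjusted p of 0.05. On the left 10 genes are called to the right of 0 and 4 to the left, with Pola1 at -1.02; on the right E2f8 at -0.42 is the one called gene.

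The size of a member's change between MYBup and mock went with the changes of the genes around it, an observation made after the values were seen. Within 1 Mb of Pola1, 5 other genes were tested (Pcyt1b, Pdk3, Zfx, Eif2s3x and Klhl15), and all 5 were lower in MYBup, with log2 fold changes of -0.65 to -1.04 and a median of -1.02, where Pola1 had -1.02. Around Cdt1, 21 of 31 genes were called, all higher, with a median of 0.42. Around Gins2, 14 of 20 were higher and 1 lower, with a median of 0.53. Around E2f8, 3 of 4 were lower, with a median of -0.52, and around Ccne1, 1 of 4, with a median of -0.30. Cdt1, Gins2 and Mcm5 all lie on chromosome 8, whose 622 other tested genes had a median log2 fold change of 0.25, and Chaf1a and Uhrf1 lie on chromosome 17, with a median of 0.19 over 559 genes. Other members stood away from their surroundings. E2f2 differed by 0.55 where its 26 neighbours had a median of 0.17. Ung differed by 0.49 where its 26 neighbours had a median of -0.01, and Slbp by 0.22 where its 24 neighbours had a median of -0.06. Across the 42 members with at least 3 tested neighbours, Pearson's r between a member's log2 fold change and the median of its neighbours was 0.83 (Spearman's rho 0.79; r = 0.76 without Pola1). For lung3 against wt it was 0.41. Over 10826 tested genes the same r was 0.22 in each of these 2 comparisons (rho 0.40 and 0.34); these genes include lower and noisier ones, and neighbouring genes and members on 1 chromosome are not independent points. The DNA copy number of the cells was not analysed here.

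**Figure D4:**
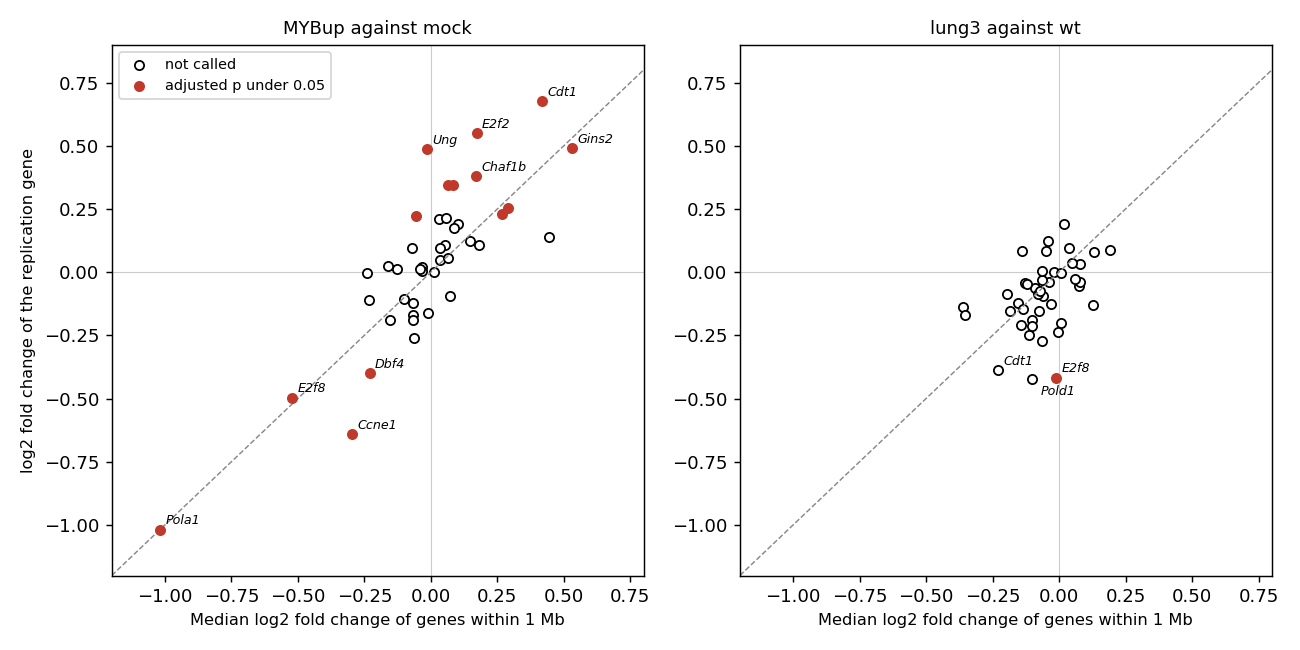
Log2 fold change of each of 42 replication genes (vertical) against the median log2 fold change of the tested genes within 1 Mb of it (horizontal), for MYBup against mock and lung3 against wt; the dashed line marks equal values and filled points passed an adjusted p of 0.05. For MYBup against mock the points run along the line from Pola1 to Gins2 and Cdt1, with Ung and E2f2 above it.

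When each gene was centred in each library on its 30 nearest tested genes other than members, a setting added after the data were seen, 6 of 43 members were called between MYBup and mock (14%), where 19.1% of all genes were. E2f2, Cdk2, Ung and Slbp were higher (9.3% of members, against 8.94% of all genes), and Ccne1 and Pola1 lower (4.65%, against 10.2%). Pola1 then differed by -0.29 (adjusted p = 0.0441), against -1.02 without centring. The calls of E2f2, Ccne1, Pola1 and Ung held under every alternative that was run apart from a 1.5-fold minimum. Of the 14 genes, Cdt1, Ccne1 and Pola1 reached that minimum.

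**Figure D5:**
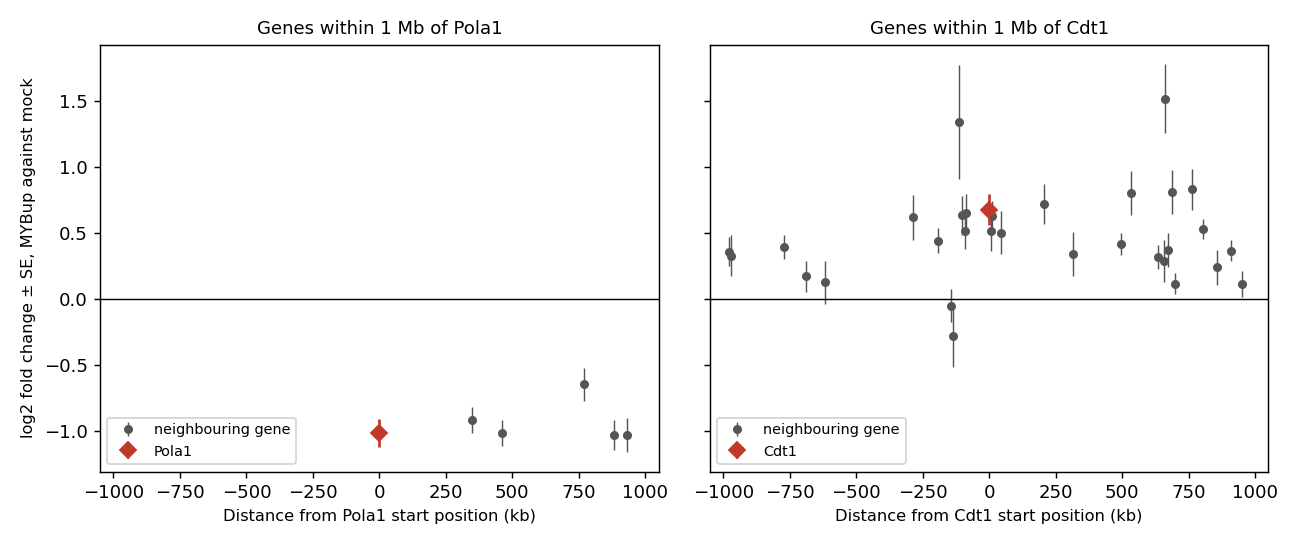
Log2 fold change between MYBup and mock cells, with SE, of Pola1 (left) and Cdt1 (right) at position 0 and of every other tested gene within 1 Mb, by distance in kb between gene start coordinates on the chromosome. All 5 genes near Pola1 are below 0, and 29 of the 31 near Cdt1 are above 0.

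Setting lung3 against wt cells addressed which genes differ between the lung-passaged and the unpassaged cells. A single member of 43 passed the test (2.33%), where 5.36% of all tested genes did (2.91% higher and 2.44% lower): E2f8, lower in lung3. E2f8 was at 101, 118 and 125 CPM in lung3 and 156, 149.6 and 153 CPM in wt libraries (-0.42, SE 0.09, adjusted p = 0.0186). All 3 lung3 libraries were below all 3 wt libraries, but the call was lost without wt replicate 1, wt replicate 2, lung3 replicate 1 or lung3 replicate 2 (adjusted p at most 0.082). Without lung3 replicate 1, Cdt1 (-0.52, adjusted p = 0.0327) and Pold1 (-0.57, adjusted p = 0.0424) were called as lower in its place. Without both MYBup replicate 1 and mock replicate 2, Cdt1 (-0.39, adjusted p = 0.0391) and Slbp (-0.24, adjusted p = 0.0437) were called as lower beside it. No member was called as higher by edgeR, by DESeq2 or by limma voom, and 0 were higher at an unadjusted p under 0.05, against 7 lower. The share of all genes at that unadjusted threshold was not counted, so these last counts have no background beside them. The median log2 fold change was -0.07, against 0.00 for all genes, and 31 of 43 members were below 0. That median was -0.041 without wt replicate 2 and -0.110 without wt replicate 3, -0.034 with centring per chromosome and -0.030 with centring on the 30 nearest genes.

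For 9 members (20.9%, against 27.4% of all genes in either direction and 13.4% in that one) all lung3 libraries were below all wt libraries, and for no member were they all above, as they were for 14% of all genes. Cdt1 was at 91.9, 64.1 and 79.3 CPM in lung3 and 113, 99.1 and 96.2 CPM in wt libraries (-0.39, adjusted p = 0.0723). Mcm2 was at 201, 177 and 207 CPM in lung3 and 251, 232 and 214 CPM in wt libraries (-0.25, adjusted p = 0.107). In both, lung3 replicate 2 was the lowest of all libraries, and it also had the lowest total count of the series. Pold1 was at 61.5, 39.4 and 53.1 CPM in lung3 and 78.3, 62.6 and 66.5 CPM in wt libraries (-0.42, adjusted p = 0.0922), and lung3 replicate 2 was again the lowest of all libraries. Ung was at 20.7, 18.0 and 16.7 CPM in lung3 and 23.5, 21.1 and 22.3 CPM in wt libraries (-0.27, adjusted p = 0.132), and Slbp at 95.1, 101 and 95.3 CPM in lung3 and 112, 109 and 122 CPM in wt libraries (-0.24, adjusted p = 0.0927). The remaining 3 were E2f1 at 43.3, 41.1 and 44.1 CPM in lung3 and 50.4, 47.7 and 44.7 CPM in wt, Ccne1 at 12.1, 11.9 and 12.1 CPM in lung3 and 13.2, 13.5 and 14.4 CPM in wt, and Pcna at 334, 327 and 337 CPM in lung3 and 372, 379 and 340.5 CPM in wt libraries. None of these 8 genes passed the test.

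Because lung3 and wt libraries of the same replicate number deviated together, the comparison was also fitted with a block for that number, using their 6 libraries alone. Then 5 members were called, all lower (11.6%), where 17.9% of all genes were called, 8.67% as higher and 9.24% as lower. They were E2f8 (-0.42, adjusted p = 0.000728), Pold1 (-0.44, 0.00133), Cdt1 (-0.40, 0.00181), Mcm2 (-0.25, 0.0251) and Slbp (-0.24, 0.0255). DESeq2 without the block called E2f8, Cdt1 and Pold1. Over all genes it called 486 as higher and 418 as lower, against 329 and 276 by edgeR. Of the members called between MYBup and mock, Pola1, E2f2, Cdk2 and Dbf4 did not pass the test between lung3 and wt with or without the block. Pola1 was at 138, 165 and 153 CPM in lung3 and 145, 166 and 158 CPM in wt libraries (-0.04, SE 0.10), and E2f2 at 13.7, 14.4 and 13.7 CPM in lung3 and 14.3, 13.0 and 13.6 CPM in wt libraries (0.03, SE 0.10). Cdk2 was at 50.3, 48.4 and 56.5 CPM in lung3 and 54.8, 51.8 and 53.0 CPM in wt libraries, and Dbf4 at 194, 194 and 177 CPM in lung3 and 184, 178 and 202 CPM in wt libraries. The groups overlapped for each of these 4 genes. Of the other genes followed by library, Cdc6 was at 74.6, 78.8 and 73.9 CPM in lung3 and 71.5, 74.1 and 63.1 CPM in wt libraries, Rrm2 at 416, 476 and 443 CPM in lung3 and 419.8, 430.3 and 413 CPM in wt, and Tyms at 96.6, 88.3 and 89.9 CPM in lung3 and 98.0, 101 and 91.0 CPM in wt. Ccne2 was at 51.6, 68.5 and 56.5 CPM in lung3 and 54.8, 62.1 and 54.9 CPM in wt libraries. The largest positive difference of any member was that of Cdc7, at 28.7, 27.7 and 24.2 CPM in lung3 and 24.7, 21.7 and 24.2 CPM in wt libraries (0.19, adjusted p = 0.265).

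For Mcm5, Gins2, Chaf1a, Chaf1b and Uhrf1, also called between MYBup and mock, the lung3 and wt libraries overlapped. Mcm5 was at 396, 368 and 410.4 CPM in lung3 and 473, 495 and 390.2 CPM in wt libraries, and Gins2 at 28.8, 26.9 and 25.9 CPM in lung3 and 33.3, 31.3 and 27.1 CPM in wt libraries. Chaf1a was at 147, 148 and 151 CPM in lung3 and 162, 159.6 and 139 CPM in wt, Chaf1b at 59.5, 51.4 and 49.8 CPM in lung3 and 57.6, 58.2 and 59.7 CPM in wt, and Uhrf1 at 253, 247 and 269 CPM in lung3 and 309.9, 311 and 268 CPM in wt libraries. For Gins2 and Uhrf1, 2 of the 3 lung3 libraries were below all 3 wt libraries.

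Mock cells carry a plasmid but no added Myb, and their comparison with wt shows how far the 43 members already differed between control lines. Of 43 members, 21 changed (48.8%), where 35.9% of all tested genes did, with 15 higher in mock (34.9%, against 18% of all genes) and 6 lower (14%, against 17.9%). The higher ones were E2f1, E2f8, Ccne1, Dbf4, Mcm4, Mcm7, Cdc45, Gins1, Pola1, Rfc2, Rfc3, Rfc4, Fen1, Rrm2 and Tyms. The lower ones were E2f2, Cdk2, Cdc7, Cdt1, Mcm5 and Chaf1a. Replication genes outside the 43 went the other way. Of the 57 counted further below, 5 were higher in mock (8.77%) and 17 lower (29.8%), with a median of -0.11. Among the 43 members, the largest changes were Ccne1 at 0.74 (adjusted p = 0.000248), E2f1 at 0.56 (adjusted p = 0.00129) and Cdt1 at -0.48 (adjusted p = 0.00574). With centring on the 30 nearest genes, 7 members were called (16.3%, against 30.9% of all genes), 3 as higher (Ccne1, Fen1 and E2f1, against 16%) and 4 as lower (E2f2, Cdk2, Cdc7 and Pold1, against 15%). Of the 21 calls, 10 held when any one library was left out. Without mock replicate 3 or wt replicate 1, 3 members were called as lower instead of 6. Without both MYBup replicate 1 and mock replicate 2, the calls of Mcm7, Cdc45, Gins1, Rfc4 and Cdc7 were lost (adjusted p between 0.0715 and 0.121).

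Between MYBup and wt cells, 14 members changed (32.6%, against 38.2% of all genes), 11 of them higher in MYBup (25.6%, against 19.4% of all genes; E2f1, Mcm4, Mcm7, Gins2, Pola2, Rfc2, Rfc3, Fen1, Ung, Chaf1b and Uhrf1) and 3 lower (6.98%, against 18.7%; Cdc7, Pola1 and Lig1). Of these calls, 7 held when any one library was left out; 7 members instead of 11 were higher without wt replicate 3, and 1 instead of 3 was lower without MYBup replicate 2, MYBup replicate 3 or wt replicate 1. Without both MYBup replicate 1 and mock replicate 2, E2f1 (adjusted p = 0.0602) and Pola2 (adjusted p = 0.0736) lost their calls and Slbp was called as higher (0.23, adjusted p = 0.0263). The 57 replication genes outside the 43, counted further below, leaned the other way here too. For MYBup against wt, 7 of them were called as higher (12.3%) and 15 as lower (26.3%). Their median log2 fold change was -0.07, where that of the 43 members was 0.10. The comparisons with mock and with wt share the MYBup libraries, and those of MYBup and of wt share mock, so their values are only set side by side. Pola1 averaged 105 ± 5.48 CPM in MYBup, 213 ± 30.2 in mock and 157 ± 10.7 in wt cells (SD, n = 3 each), with log2 differences of -1.02 for MYBup against mock, 0.44 for mock against wt and -0.58 for MYBup against wt, all 3 past the threshold. With centring on the 30 nearest genes, Pola1 lost its calls in mock against wt (0.17, adjusted p = 0.163) and MYBup against wt (-0.11, adjusted p = 0.354). E2f2 averaged 14.5 ± 0.550 CPM in MYBup, 9.88 ± 0.870 in mock and 13.6 ± 0.654 in wt cells, and MYBup differed from wt by 0.09 (SE 0.09). Cdt1 averaged 117 ± 11.8 CPM in MYBup, 73.5 ± 0.914 in mock and 103 ± 9.16 in wt cells, and MYBup differed from wt by 0.19 (SE 0.12). Ccne1 averaged 14.7 ± 1.39 CPM in MYBup, 22.9 ± 3.25 in mock and 13.7 ± 0.625 in wt cells, and MYBup differed from wt by 0.10 (SE 0.11). Mock cells had the lowest mean of the 4 groups for E2f2 and Cdt1 and the highest for Ccne1, and MYBup against wt did not pass the test for these 3 genes. Ung followed another order: it averaged 31.3 ± 2.26 CPM in MYBup, 22.5 ± 1.38 in mock and 22.3 ± 1.20 in wt cells, and MYBup differed from wt by 0.49, SE 0.10, adjusted p = 0.00158. Gins2 averaged 44.6 ± 3.72 CPM in MYBup, 31.8 ± 4.62 in mock and 30.6 ± 3.16 in wt cells, with 0.54, SE 0.11, adjusted p = 0.00228, for MYBup against wt.

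The study searched for genes with opposite changes in MYBup and lung3 cells. The 2 effects share no library, and the difference between them, (MYBup minus mock) minus (lung3 minus wt), was tested in the same fit. It passed for 10 members (23.3%), where 19.9% of all tested genes passed. It was positive for E2f2, Cdk2, Cdt1, Mcm5, Gins2, Ung, Slbp and Uhrf1 (18.6%, against 10.4% of all genes) and negative for Dbf4 and Pola1 (4.65%, against 9.52%). Cdt1 had the largest difference of effects, 1.06 (SE 0.16, adjusted p = 0.000803), from 0.68 in MYBup against mock and -0.39 in lung3 against wt. Its 31 neighbours had medians of 0.42 and -0.23 in the same 2 comparisons. Without both MYBup replicate 1 and mock replicate 2, E2f2 lost this call (0.43, adjusted p = 0.0559) and Chaf1b gained one (0.53, adjusted p = 0.0208). Whether a member passed with opposite signs in both comparisons depended on the fit. Without the replicate block, E2f8 was the one called in lung3, and it was lower in both (difference -0.08, adjusted p = 0.71). With the block in lung3 against wt, Cdt1 (-0.40, adjusted p = 0.00181) and Slbp (-0.24, adjusted p = 0.0255) were called as lower in lung3, and both were higher in MYBup (0.68 and 0.22 in the fit without it). With a block on their 6 libraries, MYBup against mock kept the call of Cdt1 and not that of Slbp. DESeq2 without a block also called Cdt1 as lower in lung3 (-0.38, adjusted p = 0.0293).

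Further genes of the pathway were counted beside the share over all tested genes, of which 14.3% were higher and 12.6% lower in MYBup than in mock cells, and 2.91% higher and 2.44% lower in lung3 than in wt cells. Of 57 other replication genes, 9 were higher and 5 lower in MYBup than in mock cells, with a median log2 fold change of 0.02, and 1 was higher and 1 lower in lung3 than in wt cells. As shares these were 15.8% higher and 8.77% lower in MYBup, and 1.75% in each direction in lung3, which is near the share over all genes. Dna2, a nuclease and helicase that trims long flaps, was at 15.3 ± 2.22 CPM in MYBup, against 6.25 ± 0.842 CPM in mock cells (SD, n = 3; 1.29, SE 0.13, adjusted p = 1.55e-05). Orc6, a subunit of the origin recognition complex, was at 84.9 ± 6.37 CPM in MYBup, against 58.4 ± 8.13 CPM in mock cells (0.54, SE 0.10, adjusted p = 0.00151). Chtf18, of an alternative clamp loader, differed by 0.48, SE 0.11, adjusted p = 0.00471, and Wdhd1, which ties polymerase alpha to the helicase, by 0.44, SE 0.09, adjusted p = 0.0037. In lung3, Fam111a, a PCNA-binding protease, was at 31.8 ± 7.04 CPM in lung3, against 55.1 ± 1.41 CPM in wt cells (-0.79, SE 0.12, adjusted p = 0.00243), and Orc1, the largest subunit of the origin recognition complex, was higher by a margin at the threshold (0.39, SE 0.11, adjusted p = 0.0499). The median of these 57 genes in lung3 against wt was 0.01.

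Of 21 genes of the retinoblastoma pathway and its cyclins, 2 were higher (9.52%) and 8 lower (38.1%) in MYBup than in mock cells (median -0.09). Rb1, which encodes the retinoblastoma protein that holds E2F factors in check, was at 20.4 ± 2.00 CPM in MYBup, against 13.9 ± 0.684 CPM in mock cells (0.55, SE 0.11, adjusted p = 0.00319). Rb1 was also lower in mock than in wt cells (-0.46, adjusted p = 0.0066) and did not pass the test between MYBup and wt (0.10, adjusted p = 0.522). Its relative Rbl2 was at 21.6 ± 3.28 CPM in MYBup, against 30.8 ± 2.57 CPM in mock cells (-0.51, SE 0.11, adjusted p = 0.00445). Lin54, the DNA-binding subunit of the MuvB complex, differed by -0.47, SE 0.11, adjusted p = 0.00758, and Ccnd2, cyclin D2, by -0.46, SE 0.10, adjusted p = 0.00318. Between lung3 and wt cells 2 of the 21 were lower (9.52%): Tfdp2, a dimer partner of E2F (-0.45, SE 0.09, adjusted p = 0.0133), and again Rbl2 (-0.45, SE 0.11, adjusted p = 0.0355). At an unadjusted p under 0.05, 1 was higher and 3 lower. Of 9 CDK inhibitors and p53 genes, Cdkn1c, Cdkn2a and Cdkn2b did not pass the filter on low counts. Of the other 6, 1 was called in each comparison (16.7%): Cdkn2c, which inhibits CDK4 and CDK6, was higher in MYBup (0.42, SE 0.09, adjusted p = 0.00334), and Cdkn1b, the p27 inhibitor of CDK2, was lower in lung3 (-0.48, SE 0.09, adjusted p = 0.00676). Of 28 G2 and mitosis genes, 1 was higher (3.57%) and 5 lower (17.9%) in MYBup than in mock cells (median -0.13), and 0 were called between lung3 and wt by edgeR, DESeq2 or limma voom, with 0 higher and 3 lower at an unadjusted p under 0.05 (median -0.04). For this list and the retinoblastoma list, the unadjusted counts have no share over all genes beside them.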

How the data were processed

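RNA of 4T1 cells was isolated with a column kit and made into Illumina TruSeq libraries, per the labels' protocols. The authors deposited 1 table with raw read counts of every gene in all 12 libraries. STAR, edgeR and the build GRCm38 were used, per the submitters' processing notes; for the counter, its annotation, its treatment of strand and all versions, the entry is: not given in the sources used here. Of 22880 features, 22570 matched a symbol and 7336 had 0 counts throughout. The 2708 values of more than 4 digits are rounded by the authors to 4 significant digits, a change of at most 0.05%. All columns were used.

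The 43 members and the other gene lists were chosen with earlier results of these data known. The main test was edgeR 4.0.16 in R 4.3.3 (quasi-likelihood F test, TMM factors, filterByExpr by group, 1 fit of all 12 libraries with a term per group), with Benjamini-Hochberg adjustment over 11291 tested genes and a threshold of 0.05. CPM values were scaled with the TMM factors, SD is over 3 libraries, and SE was taken as the size of the log2 fold change over sqrt(F). A called gene is one past that threshold. The scripts were tested on simulated data, in which false calls made up 5.11% of the calls of edgeR and 5.14% of those of limma voom. They made up 14.4% of those of DESeq2 and 7.30% of those with centring on the 30 nearest genes. Replicates differed by more than sampling noise (chi-square per gene 2.29 to 37.4 within groups), so none was counted as a duplicate. Counting error and precision depend on the depth, which was lowest for lung3 replicate 2.

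Pairing by replicate number was checked by correlating deviations from group means over all tested genes. Same-number correlations of lung3 and wt were 0.294 to 0.329 and those of unlike numbers -0.212 to -0.093, so the blocked result is printed there. Between MYBup and mock they were -0.496 to 0.382 for the same and -0.541 to 0.636 for unlike numbers, and those groups were not treated as paired. Alternatives were RLE factors, no filter on low counts, fits on the 6 libraries compared, a replicate block, DESeq2 1.42.0, limma voom 3.58.1, omission of each library in turn and a minimum change of 1.5-fold; centring by chromosome or on neighbouring genes and leaving out mock replicate 2 with MYBup replicate 1 were chosen after seeing the data.

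Values per library are given for every member called in MYBup against mock or lung3 against wt, for Myb, and for E2f1, E2f2, Ccne1, Ccne2, Cdk2, Cdt1, Cdc6, Mcm2, Pcna, Rrm2 and Tyms. Of the other lists, the 4 called genes with the largest change in each of these comparisons are named. Cdc7 and the members near a threshold of overlap were named after their values were seen. Gene coordinates are 1-based and come from GENCODE M21 (GRCm38), and promoter sequences are from RefSeq. Shared exons were taken from that annotation and near-identical transcripts from BLAST 2.17.0 (at least 95% identity over 200 bases). Figures used Python 3.11.15 with matplotlib 3.10.9.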

Additional observations from a re-analysis of the deposited data

Results flagged for a closer look

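The difference between the effects, (MYBup minus mock) minus (lung3 minus wt), passed edgeR's test of the interaction (adjusted p under 0.05) for 10 of the 43 replication genes, which is what singled them out. On the log2 scale it was positive for Cdt1 (1.06, SE 0.16, adjusted p = 0.000803), Ung (0.76, SE 0.14, adjusted p = 0.0023), Gins2 (0.66, SE 0.16, adjusted p = 0.0123), Mcm5 (0.55, SE 0.14, adjusted p = 0.015) and E2f2 (0.52, SE 0.14, adjusted p = 0.0181). It was also positive for Uhrf1 (0.47, SE 0.12, adjusted p = 0.0161), Slbp (0.46, SE 0.11, adjusted p = 0.0101) and Cdk2 (0.38, SE 0.11, adjusted p = 0.0326). It was negative for Pola1 (-0.97, SE 0.15, adjusted p = 0.000654) and Dbf4 (-0.40, SE 0.12, adjusted p = 0.0314). The effects of MYBup against mock and of lung3 against wt stood at 0.68 and -0.39 for Cdt1, 0.49 and -0.27 for Ung, 0.22 and -0.24 for Slbp and -1.02 and -0.04 for Pola1. Of the 10 calls, 7 held when any one library was left out, and 3 held under every alternative apart from the 1.5-fold minimum (Cdt1, Ung and Slbp). Centring on the 30 nearest genes removed the calls of Pola1 (-0.33, adjusted p = 0.108), Gins2 (-0.050, 0.869) and Mcm5 (0.089, 0.713). It also removed those of Uhrf1 (0.035, 0.874), Cdk2 (0.26, 0.182) and Dbf4 (-0.12, 0.603).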

How the results depend on the processing

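Over the single genes, 4346 of the values recomputed under an alternative kept their direction and side of the threshold, 245 lost a call, 47 gained one and 6 turned their sign. The counts of called members moved by more than 1.5 times as follows; the cause was not tested unless the setting itself removes genes or samples. Higher in MYBup against mock, 10 with all libraries in the fit, became 6 in the fit on 6 libraries, 3 with a replicate block on those 6, 6 with centring per chromosome, 4 with centring on the 30 nearest genes and 1 with a 1.5-fold minimum, and lay between 6 and 10 when 1 library was left out. Lower, 4, became 2 with centring on the 30 nearest genes and 2 with the minimum (range 4 to 6). Lower in lung3 against wt, 1, became 2 without the filter, 5 with the block on 6 libraries, 3 with DESeq2, 0 with centring on the 30 nearest genes, 3 without mock replicate 2 and MYBup replicate 1 and 0 with the minimum (range 0 to 2). Higher in mock against wt, 15, became 8 per chromosome, 3 on the 30 nearest genes and 1 with the minimum (range 10 to 16), and lower, 6, became 3 without the filter, 3 in the fit on 6 libraries, 3 with the block, 3 per chromosome and 0 with the minimum (range 3 to 5). Higher in MYBup against wt, 11, became 0 with the minimum (range 7 to 13), and lower, 3, also 0 (range 1 to 3). The difference of effects, 10, became 5 on the 30 nearest genes and 4 with the minimum (range 7 to 11). Leaving out 1 library moved the median member difference within 0.015 to 0.139 for MYBup against mock, -0.110 to -0.041 for lung3 against wt, 0.0089 to 0.121 for mock against wt, 0.087 to 0.152 for MYBup against wt and 0.077 to 0.214 for the difference of effects, which was 0.193 without mock replicate 2 and MYBup replicate 1. Turned signs, all under centring (added, as was leaving out those 2 libraries, after the data were seen), were those of Chaf1a (-0.083, adjusted p = 0.522) and Uhrf1 (-0.054, 0.687) in MYBup against mock, E2f2 (-0.23, 0.0476) and Pola2 (-0.26, 0.0266) in MYBup against wt and Gins2 (-0.050, 0.869) in the difference of effects on the 30 nearest genes, and of Gins3 (0.26, 0.0266) in mock against wt per chromosome. MYBup and mock libraries share only a number: the replicate block on them gave 788 higher and 691 lower calls over all genes, against 1615 and 1423 without it. The block on all 12 libraries left the counts of members within 1.5 times. The groups of 3 libraries limit what can be called, with a median SE of 0.10 on the log2 scale for the members.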
